A study of Rattus norvegicus with 18 samples.

Results

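The genes described here bring glucose into the cell and break it down to pyruvate and lactate: Slc2a1, Hk2, Pfkm, Aldoa, Pgam2, Eno3, Pkm, Ldha and Ldhb. They were picked by gene symbol. All 9 were measured, by 13 of the 8740 probe sets tested on the Rat U34A array, a chip on which a set of short probes reads each transcript. Of the 9 genes, 8 had a probe set of their own, while Ldha was read by a probe set that the annotation gives to both Ldha and Ldhal1, so that these 2 genes could not be separated.

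Tissue came from female Sprague-Dawley rats that were 6 weeks (young), 26 weeks (adult) or 52 weeks (older) of age at fracture. The middle of the femoral shaft was broken and held by a rod in the marrow cavity, and the central part of the bone, with its callus, cortical bone and marrow, was taken at 0.4, 1, 2, 4 or 6 weeks. The sample labels give the 0.4 week time as 3 days, and rats with no fracture served as the 0 time controls. No rats without fracture were read at the later times, so fracture and the passing of time cannot be told apart. There was 1 array for each age and time, 18 in all, with RNA from 2 rats pooled on each, so the 3 ages are the replicates of a time and no age has a replicate at any time. Signals are linear brightness values with no absolute unit, and where 3 signals follow each other they are those of the young, adult and older rats in that order. The median signal per array was between 149.4 and 187.7. The Gapdh control probe sets gave 3.485 and 6.565 times more signal at the 3′ end than at the 5′ end on the young 4- and 6-week arrays, and 1.152 to 1.829 times more on the other arrays, so counts were also made without the former 2 arrays.

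Glycolysis is shared by all cells, but skeletal muscle runs it with its own set of enzymes. Muscle fibers make the M forms of phosphofructokinase (Pfkm), phosphoglycerate mutase (Pgam2) and enolase (Eno3), take up glucose through the insulin-responsive transporter Slc2a4, and draw on glycogen through the muscle phosphorylase Pygm. Most other cells, including those of cartilage, bone and marrow, use Slc2a1, Pfkl, Pfkp, Pgam1 and Eno1, and many of these general forms are known targets of hypoxia-inducible factor 1. Aldoa, Pkm and Ldha are abundant in muscle but are made in many other cells too, and Ldhb is the form of lactate dehydrogenase typical of heart and oxidative fibers.

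The promoters of 2 genes that fell after fracture and of 2 that rose are shown because their signals went in opposite directions in the first week. Each line gives the 250 bases before the start of transcription, from RefSeq on build GRCr8. In Pgam2 (chr14:84897875-84898124, minus strand) and Eno3 (chr10:55868936-55869185, plus strand), the muscle forms, capitals mark the E-box CANNTG, the core bound by the muscle factors of the MyoD family:
Pgam2: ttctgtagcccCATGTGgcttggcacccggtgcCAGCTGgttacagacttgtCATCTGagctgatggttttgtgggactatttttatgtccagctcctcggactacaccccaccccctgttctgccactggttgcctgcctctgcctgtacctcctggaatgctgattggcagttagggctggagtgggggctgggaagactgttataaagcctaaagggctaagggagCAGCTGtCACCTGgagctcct
Eno3: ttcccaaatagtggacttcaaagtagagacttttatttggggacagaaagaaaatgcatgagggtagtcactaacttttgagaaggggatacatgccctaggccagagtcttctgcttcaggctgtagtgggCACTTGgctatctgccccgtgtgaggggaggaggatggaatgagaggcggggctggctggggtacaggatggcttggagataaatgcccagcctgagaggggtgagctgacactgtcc
In Pgam1 (chr1:250672902-250673151, plus strand) and Slc2a1 (chr5:138002272-138002521, plus strand), the general forms, capitals mark ACGTG and GCGTG, the core of the hypoxia response element, on either strand:
Pgam1: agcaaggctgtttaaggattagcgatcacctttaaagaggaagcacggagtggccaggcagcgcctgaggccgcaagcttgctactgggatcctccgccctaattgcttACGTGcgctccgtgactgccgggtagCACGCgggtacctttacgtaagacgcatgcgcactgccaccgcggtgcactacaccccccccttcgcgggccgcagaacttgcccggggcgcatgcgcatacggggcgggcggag
Slc2a1: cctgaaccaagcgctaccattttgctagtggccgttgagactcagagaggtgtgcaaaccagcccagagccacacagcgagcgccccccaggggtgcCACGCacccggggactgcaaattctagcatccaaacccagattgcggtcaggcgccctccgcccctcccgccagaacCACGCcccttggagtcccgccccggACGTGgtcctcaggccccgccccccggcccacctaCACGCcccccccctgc
Both strands were searched in the same window of all 33469 promoters of the table. CANNTG, which reads the same on both strands and was counted once per place, was found 5 times in Pgam2, 1 time in Eno3 and 0 times in Pgam1 and Slc2a1, and was present in 65.5% of all promoters. ACGTG was found 1 time in each of Pgam1 and Slc2a1 and in 16.6% of all promoters. GCGTG was found 1 time in Pgam1 and 3 times in Slc2a1 and in 25.9% of all promoters, and neither hypoxia core was found in the windows of Pgam2 or Eno3. The letters did not divide muscle from general forms. The muscle form Pfkm held CANNTG 0 times and ACGTG 1 time, while the general forms Eno1 and Pfkl held CANNTG 3 and 2 times in their first listed windows. Those windows also held GCGTG 1 and 2 times, and the second window of Eno1 held CANNTG 0 times and GCGTG 1 time. Aldoc held ACGTG 1 time, GCGTG 2 times and CANNTG 1 time, and Pfkp held GCGTG and CANNTG 1 time each. The first window of Hk1 held CANNTG 2 times and neither hypoxia core, and its second held ACGTG 1 time and CANNTG 0 times. Ldha held CANNTG 3 times, ACGTG 3 times and GCGTG 1 time. Of the other genes that fell, Ldhb held GCGTG 1 time, and the third of 3 listed windows of Aldoa held ACGTG and CANNTG 1 time each. These letters are a description of the windows, and binding was not measured.

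Over the 5 later weeks after fracture, 8 of the 9 genes changed by the moderated F test of limma. This is a test of any change from 0 time with age as a term (adjusted p under 0.05 after Benjamini-Hochberg adjustment over all 8740 probe sets). Of all probe sets tested, 26.4% passed the same test. Ldha was the gene that did not pass (adjusted p = 0.169 from limma). Of the 8, Slc2a1 rose, while Pfkm, Aldoa, Pgam2, Eno3, Pkm, Ldhb and Hk2 had their largest change downward. The count was 8 without the young 4- and 6-week arrays as well, against 21.5% of all probe sets, and 8 without all young arrays, against 23.3%. Leaving out the adult rats gave 2, against 0.297% of all probe sets, and leaving out the older rats gave 1, against 2%, so that calls were lost across the whole array in both cases.

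At 0.4 week, 5 of the 9 genes were lower than at 0 time (Aldoa, Eno3, Pgam2, Pfkm and Ldhb), against 17.1% of all probe sets. Slc2a1 was higher, against 14.1% of all probe sets, and Hk2, Ldha and Pkm did not pass the test. The median log2 change of the 9 genes was -2.05, and that of all probe sets was -0.13 at 0.4, 1 and 2 weeks. At 1 week, 7 genes were lower, the same 5 with Ldha and Pkm, against 20.4% of all probe sets, and Slc2a1 was higher, against 14.6%. At 2 weeks, 5 were lower (Aldoa, Hk2, Ldhb, Pfkm and Pgam2), against 10.3%, and Slc2a1 was still higher, against 9.49%. At 4 weeks, 3 were lower (Hk2, Ldhb and Pkm), against 1.77%, and 0 were higher, against 3.31%. At 6 weeks, 0 were lower, against 0.32% of all probe sets, and 0 were higher, against 0.561%, by limma. With an unadjusted p under 0.05 by limma, 5 were lower and 1 was higher. Of all 8740 probe sets, 903 were lower and 889 higher at that level. The methods' t-test found 2 genes on log2 signals and 1 on linear signals at that unadjusted level at 6 weeks, and 0 after adjustment.

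**Figure D1:**
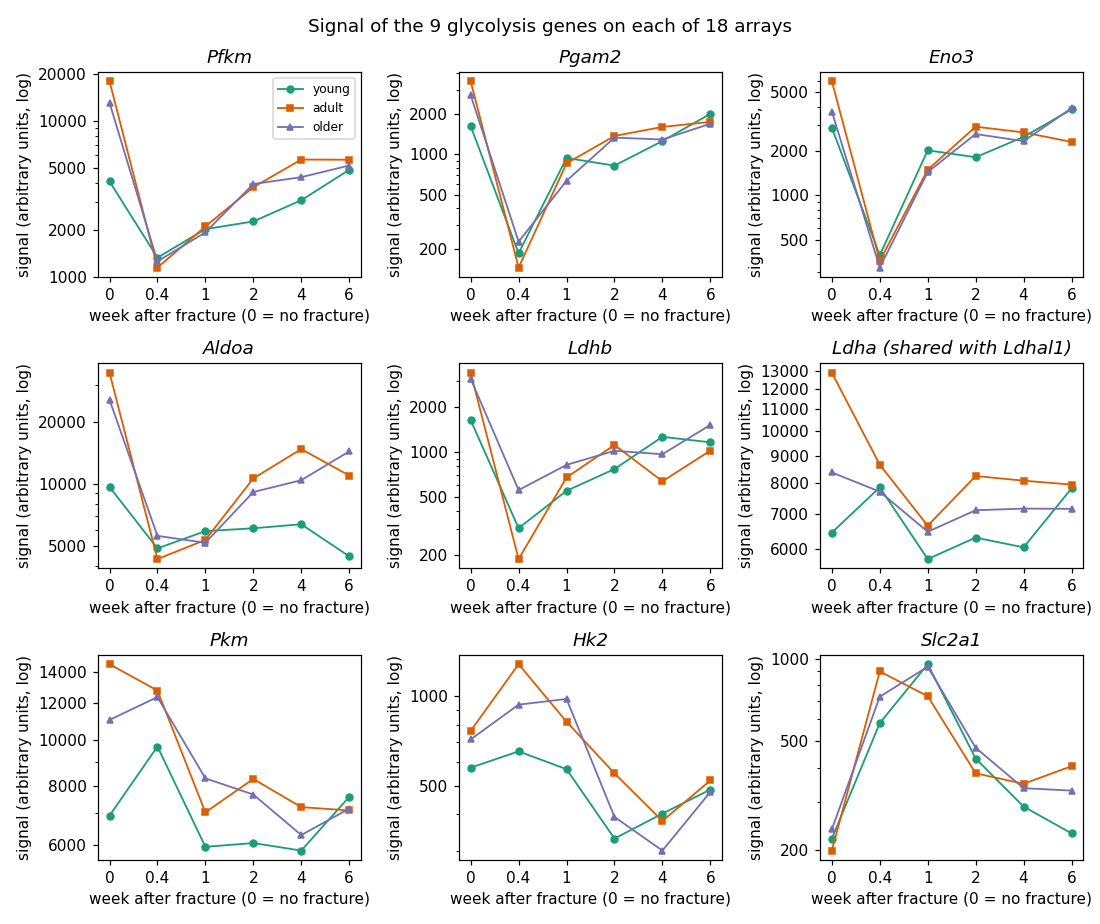
Signal of each of the 9 genes (log axis, arbitrary units) against week after fracture, evenly spaced, with 1 array per point and 1 line per age. Pfkm, Pgam2, Eno3, Aldoa and Ldhb drop on all 3 lines from 0 to 0.4 week, and Slc2a1 climbs on all 3.

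Pgam2, the muscle form of phosphoglycerate mutase, which moves the phosphate group of 3-phosphoglycerate, had the largest fall of the 9 genes. Its 0 time signals were 1616.4, 3474.6 and 2739.1. At 0.4 week it was 186.0, 145.8 and 226.5. These ranges did not overlap, and every age fell, by 8.69-fold, 23.8-fold and 12.1-fold. The log2 change was -3.76 ± 0.28 (SE of the fit, 3 ages, adjusted p = 3.84e-05 from limma). By 1 week the signals were 940.9, 858.0 and 638.4, still below every control array (log2 change -1.63 ± 0.28, adjusted p = 0.00235 from limma). At 6 weeks the signals of 1993.8, 1739.5 and 1684.5 overlapped the controls, with the young array above its own control and the other 2 below theirs. That young array had a Gapdh end ratio of 6.565.

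Eno3, the muscle form of enolase, which makes phosphoenolpyruvate, ran almost in parallel with Pgam2. It read 2876.5, 5948.1 and 3702.7 at 0 time and 391.5, 359.0 and 323.1 at 0.4 week. The ages spread 2.07-fold at 0 time but 1.21-fold at 0.4 week, and every 0.4 week array lay below every control. The log2 change was -3.48 ± 0.29 (adjusted p = 6.54e-05 from limma), and it was -1.29 ± 0.29 at 1 week (adjusted p = 0.00738 from limma). At 2, 4 and 6 weeks the changes of -0.73, -0.68 and -0.29 did not pass the test. At 6 weeks the signals were 3827.6, 2304.1 and 3899.1, above the own control in young and older rats and below it in the adult. The Gapdh end ratio of this young array was 6.565.

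Pfkm, the muscle subunit of phosphofructokinase, the main control point of glycolysis, was still lower at 2 weeks. Its brighter probe set read 4084.6, 17886.0 and 13046.5 at 0 time, a 4.38-fold spread between ages. At 0.4 week the 3 ages lay at 1327.8, 1146.7 and 1256.0, within 1.16-fold of each other. All of these were below all controls, and the log2 change was -2.99 ± 0.35 (adjusted p = 0.000309 from limma). At 1 week the signals were 2020.3, 2102.4 and 1926.7, and the change was -2.29 ± 0.35 (adjusted p = 0.00161 from limma). At 2 weeks it was -1.61 ± 0.35 (adjusted p = 0.0142 from limma), and the changes of -1.22 and -0.92 at 4 and 6 weeks did not pass. In the young rats the 6 week signal of 4842.1 was above that age's control, while the adult (5621.2) and older (5158.0) arrays stayed 3.18-fold and 2.53-fold below theirs. That young array had a Gapdh end ratio of 6.565, and on it the second Pfkm probe set was 2.05-fold below its control. The second probe set of Pfkm fell at 0.4 week (log2 change -1.69 ± 0.45, adjusted p = 0.0176 from limma) but did not pass at any later week nor the F test (adjusted p = 0.122 from limma).

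Aldoa, aldolase A, which splits fructose 1,6-bisphosphate and is the form found in muscle and in red cells, gave signals of 9670.9, 34397.9 and 25459.6 at 0 time. At 0.4 week these were 4884.4, 4338.4 and 5614.7. The fall was therefore 1.98-fold in the young but 7.93-fold in the adult rats, and all 3 ages ended at like levels, below every control. The log2 change was -2.05 ± 0.37 (adjusted p = 0.00239 from limma), and it was -1.89 ± 0.37 at 1 week (adjusted p = 0.00404) and -1.28 ± 0.37 at 2 weeks (adjusted p = 0.0341), both from limma. At 0.4 week the log2 change was -2.58 without the young rats (adjusted p = 0.00151 from limma). It was -1.58 without the adult rats (adjusted p = 0.108) and -1.99 without the older rats (adjusted p = 0.0802), where the call was lost by limma. In the young rats the level at 6 weeks, 4473.7, was the lowest of the 6 young arrays, but that array is 1 of the 2 with a high Gapdh end ratio.

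Ldhb, the heart-type subunit of lactate dehydrogenase, fell with the muscle forms. It read 1639.8, 3427.0 and 3117.7 at 0 time and 305.6, 189.1 and 552.8 at 0.4 week, with no overlap. The log2 change was -3.03 ± 0.35 (adjusted p = 0.000288 from limma), the second probe set gave -3.00 ± 0.36, and the call at 0.4 week held with any 1 age left out. Ldhb remained lower at 1 week (-1.96 ± 0.35), 2 weeks (-1.44 ± 0.35) and 4 weeks (-1.50 ± 0.35, adjusted p = 0.0389 from limma). At 4 weeks the signals were 1264.6, 633.6 and 964.7, again below every control.

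The probe set of Ldha and Ldhal1 had small changes. Ldha encodes the muscle-type subunit of lactate dehydrogenase, which favors the making of lactate. The signals at 0 time were 6447.8, 12889.2 and 8367.5, and those at 0.4 week were 7844.7, 8651.9 and 7699.6. The young array rose and the other 2 fell, and the log2 change of -0.14 ± 0.15 did not pass and was 0.01 with arrays scaled to their median. At 1 week the signals were 5749.5, 6643.2 and 6471.5, and all 3 ages were below their own control (log2 change -0.50 ± 0.15, adjusted p = 0.0255 from limma), although the adult and older values were above the young control.

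Pkm, pyruvate kinase of muscle and most other tissues, was likewise unlike Pgam2 and Eno3. Its signals were 6916.5, 14529.4 and 11057.7 at 0 time and 9706.3, 12767.2 and 12368.2 at 0.4 week, so that the 2 times overlapped (log2 change 0.15 ± 0.17, adjusted p = 0.526 from limma). It was lower at 1 week (-0.56 ± 0.17, adjusted p = 0.0281) and at 4 weeks (-0.69 ± 0.17, adjusted p = 0.0457), both from limma. At 4 weeks the signals of 5830.0, 7212.6 and 6290.4 overlapped the controls only through the adult array.

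Hk2, the hexokinase of muscle and fat that traps glucose in the cell and that many dividing cells also make, followed another course. Its brighter probe set read 574.2, 763.8 and 714.8 at 0 time and 651.6, 1281.6 and 936.3 at 0.4 week. All 3 ages were above their own control, yet the log2 change of 0.44 ± 0.21 did not pass (adjusted p = 0.127 from limma), and it passed without the young 4- and 6-week arrays (adjusted p = 0.0448 from limma). At 2 weeks Hk2 was at 331.3, 549.4 and 391.8, lower than every control (log2 change -0.71 ± 0.21, adjusted p = 0.0354 from limma), and at 4 weeks at 402.0, 379.8 and 301.8 (-0.92 ± 0.21, adjusted p = 0.0341 from limma). The second probe set differed in time course, with -0.31 ± 0.19 at 0.4 week and a fall at 1 week (-0.89 ± 0.19, adjusted p = 0.00599 from limma) when the brighter one gave 0.18 ± 0.21. The direction of Hk2 in the first week therefore depended on the probe set.

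Slc2a1, the glucose transporter GLUT1 of endothelium, cartilage and dividing cells, was the 1 gene of the 9 that rose. Its signals at 0 time were 219.6, 198.6 and 237.4, a narrow 1.2-fold range. At 0.4 week they were 581.7, 899.1 and 726.7, and at 1 week 955.9, 729.9 and 935.6. Every array of these 2 times was above every control, by 2.65-fold to 4.53-fold at 0.4 week and by 3.68-fold to 4.35-fold at 1 week within an age. By limma the log2 change at 0.4 week was 1.73 ± 0.20 (adjusted p = 0.000267). It reached 1.99 ± 0.20 a week after fracture (adjusted p = 0.000323 from limma) and was 0.97 ± 0.20 by 2 weeks (adjusted p = 0.0112 from limma). At 6 weeks the young array, with a Gapdh end ratio of 6.565, was at 229.6, close to its control. The adult and older arrays were at 404.5 and 329.3. The second, dimmer probe set of Slc2a1 rose at 0.4 week (2.32 ± 0.60, adjusted p = 0.0151 from limma) and 1 week (2.07 ± 0.60, adjusted p = 0.0227 from limma) but not at 2 weeks (0.60 ± 0.60, adjusted p = 0.499 from limma). Its 0 time signals were 82.2, 26.1 and 30.6, and the adult and older ones were close to the floor of 20. The rises at 0.4 week were 2.07-fold, 10.4-fold and 5.75-fold, so their size is uncertain.

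The muscle form of a step was then set against the general form of the same step, as the difference of their log2 signals on each array. The division is loose for lactate dehydrogenase, where Ldha took the muscle place and Ldhb the general one. It is also loose for aldolase, where Aldoa took the muscle place and Aldoc the general one. The mean of the 5 later weeks less 0 time was averaged over the 3 ages and tested with an exact permutation test within age (two-sided, over all choices of 1 array per age as the 0 time array, with 0.00463 as the smallest p it can give), with adjustment over the 8 pairs compared. Such a difference shows unequal change and not which form was more abundant. In 5 of the 8 pairs the forms changed unequally, and in the other 3 the difference did not pass.

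At the glucose transporter, Slc2a4 fell relative to Slc2a1 by 2.78 on the log2 scale (SD 1.05 over 3 ages, exact permutation p = 0.00926, adjusted p = 0.0247). Slc2a4, or GLUT4, is the transporter that insulin and contraction bring to the surface of muscle fibers. It read 749.5, 2556.2 and 1919.7 at 0 time and 253.2, 160.8 and 261.1 at 0.4 week. At 0.4 week Slc2a4 was lower and Slc2a1 higher than the own control at all 3 ages, and Slc2a4 had a log2 change of -2.81 ± 0.35 at 0.4 week (adjusted p = 0.000379 from limma).

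Phosphofructokinase showed the same split. Pfkm fell relative to Pfkl, the liver-type subunit, by 2.78 (SD 1.60, exact permutation p = 0.00926, adjusted p = 0.0247). The difference from Pfkp, the platelet-type subunit, was -2.51 (SD 1.21, exact permutation p = 0.00463, adjusted p = 0.0247). Pfkl read 373.6, 169.3 and 246.1 at 0 time and 626.7, 876.1 and 743.1 at 0.4 week, with all ages higher (log2 change 1.57 ± 0.25, adjusted p = 0.00146 from limma). Pfkp rose from 378.7, 215.4 and 250.8 to 580.8, 519.9 and 400.5 (log2 change 0.85 ± 0.20, adjusted p = 0.00824 from limma).

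Aldoa fell relative to Aldoc, the aldolase of brain and other tissues, by 2.44 (SD 1.48, exact permutation p = 0.0139, adjusted p = 0.0278). With quantile normalization the adjusted p of this pair was 0.0593. Aldoc was dim, at 106.6, 47.2 and 41.6 at 0 time and 203.0, 289.7 and 208.7 at 0.4 week, and its second probe set changed by 0.27 ± 0.19 at 0.4 week, which did not pass (adjusted p = 0.301 from limma).

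For lactate dehydrogenase the sign was the other way, with Ldhb falling further than the probe set of Ldha and Ldhal1. Ldha rose relative to Ldhb by 1.51 (SD 0.25, exact permutation p = 0.0231, adjusted p = 0.037), and the difference was 1.25, 1.76 and 1.52 for the 3 ages. This pair had the smallest spread between ages of the 8.

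Phosphoglycerate mutase and enolase did not pass over all later weeks, although they had wide gaps at 0.4 week. Pgam2 less Pgam1 changed by -1.91 (SD 0.65, exact permutation p = 0.0741, adjusted p = 0.0847), and Eno3 less Eno1 by -1.90 (SD 0.92, exact permutation p = 0.0741, adjusted p = 0.0847). At 0.4 week alone these differences were -4.61 (SD 0.93) and -4.59 (SD 0.97), negative at all 3 ages, which is a description chosen after the values were seen. Pgam1, the general mutase, read 3631.3, 3302.6 and 4582.4 at 0 time and 6299.6, 7017.5 and 7226.0 at 0.4 week, with no overlap (log2 change 0.85 ± 0.13, adjusted p = 0.00093 from limma). Eno1, the general enolase, read 6189.9, 3921.0 and 4490.5 and then 10243.9, 11068.4 and 9583.3 (log2 change 1.11 ± 0.14, adjusted p = 0.000467 from limma). With the mean of all probe sets of each gene both pairs passed, at an adjusted p of 0.037 by the same exact permutation test.

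Hexokinase was the pair with the smallest difference. Hk2 less Hk1 changed by -0.28 (SD 0.43, exact permutation p = 0.509, adjusted p = 0.509), and the older rats had a positive value of 0.06. Hk1, the general hexokinase, read 1422.4, 794.5 and 1559.4 at 0 time and 1352.8, 1380.0 and 1213.4 at 0.4 week, overlapping (log2 change 0.12 ± 0.21, adjusted p = 0.713 from limma). When any 1 age was left out, 0 of the 8 pairs passed, where the smallest p the exact permutation test allows is 0.0278, and all pair differences kept their sign.

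**Figure D2:**
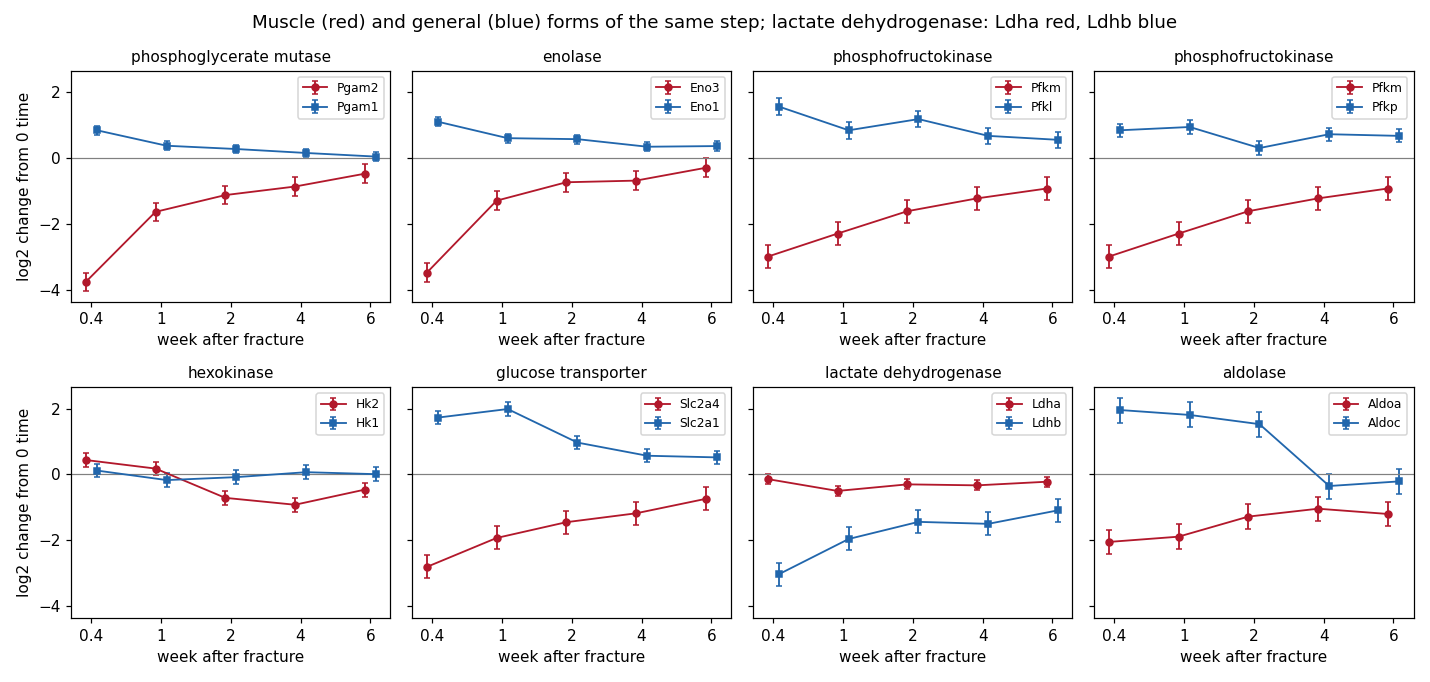
Log2 change from 0 time (points, with the standard error of the limma fit as bars) at the 5 later weeks for the 2 forms of each step. The form taken as muscle is in red and the form taken as general in blue. For lactate dehydrogenase Ldha is red and Ldhb blue, and for aldolase Aldoa is red and Aldoc blue. In the mutase, enolase, phosphofructokinase and transporter panels the red line starts between -2.81 and -3.76 at 0.4 week and the blue line lies above 0.

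The other genes of the route, from a list of 26 of which 18 were measured, went both ways at 0.4 week. Of the 18, 5 general forms (Aldoc, Eno1, Pfkl, Pfkp and Pgam1) were higher, against 14.1% of all probe sets. Lower were 3 (Slc2a4, Pfkfb1 and Pklr), against 17.1% of all probe sets. Pfkfb1, the liver and muscle form of the enzyme that sets fructose 2,6-bisphosphate, fell from 227.6, 1022.1 and 781.7 to 30.7, 30.1 and 36.6 (log2 change -4.13 ± 0.60, adjusted p = 0.000814 from limma). Its 3 other probe sets gave changes between -2.07 and 0.37, of which 1 passed. Slc16a3, the transporter that carries lactate out of glycolytic cells, had a change of -0.03 ± 0.19 at 0.4 week, which did not pass, and fell at 1 week (-1.31 ± 0.19, adjusted p = 0.00143 from limma). Pgk1, Slc2a3, Slc16a1, Slc16a7 and Ldhc were among the 10 that did not pass at 0.4 week.

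Glycogen genes leaned downward, with 5 of 9 measured lower at 0.4 week and 2 higher (median log2 change -1.10, all probe sets -0.13). Of all probe sets, 17.1% were lower and 14.1% higher. Pygm, the muscle glycogen phosphorylase, changed by -3.35 ± 0.40 (adjusted p = 0.00033 from limma). Phka1 (-2.13 ± 0.30) and Phkg1 (-1.90 ± 0.31), the muscle subunits of the kinase that activates Pygm, fell too, as did Pgm1 (-2.18 ± 0.43), which links glycogen to glycolysis, and Gyg1 (-1.10 ± 0.23), the primer of glycogen. Phkg2, the liver and testis subunit, and Pygb, the brain phosphorylase, were the 2 that rose, by 1.25 ± 0.38 and 0.55 ± 0.19.

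At the entry to the mitochondrion, 3 of 8 pyruvate dehydrogenase genes fell at 0.4 week and 0 rose by limma. Of all probe sets, 17.1% were lower and 14.1% higher at that time. The genes that fell were Dlat (-0.81 ± 0.15) and Pdhb (adjusted p = 0.00256 from limma), subunits of the complex, and Pdk2 (-1.55 ± 0.30), a kinase that shuts it off. The 2 other probe sets of Dlat did not pass. Of 3 measured genes of gluconeogenesis, Fbp2, the muscle fructose bisphosphatase, fell (-2.69 ± 0.51, adjusted p = 0.00342 from limma). Among 10 measured genes named for hypoxia, 3 were higher at 0.4 week, P4ha1, a collagen prolyl hydroxylase (2.90 ± 0.51), Hif1a, the regulated subunit of the factor (1.62 ± 0.22), and Hmox1, heme oxygenase (1.16 ± 0.29). The other 3 called were lower, namely Tfrc, Egln3 and Epo, while Vegfa (0.20) and Adm (0.55) did not pass.

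**Figure D3:**
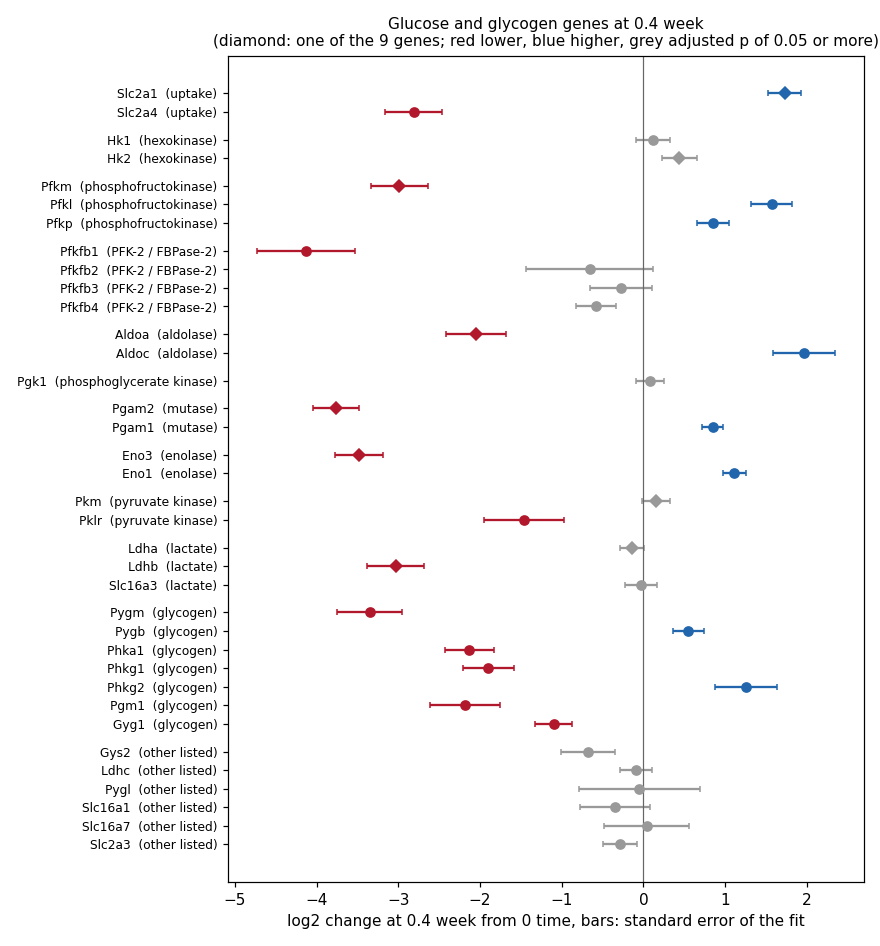
Log2 change at 0.4 week from 0 time, with the standard error of the fit, of the 9 genes (diamonds) and of the other measured glycolysis and glycogen genes (circles). Pfkm, Pgam2, Eno3 and Slc2a4 lie to the left, with Pfkfb1 lowest at -4.13. Slc2a1, Pfkl, Pfkp, Pgam1 and Eno1 lie to the right, with Aldoc at 1.96. Forms are not fully divided, as Ldhb (-3.03) and Pklr lie to the left and Hk2 (0.44) to the right.

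The fall of the muscle forms went with a fall of skeletal muscle markers. In bulk tissue, fewer cells of a type and less RNA per cell cannot be told apart. Of 26 listed muscle markers 21 were measured, and 18 of them were lower at 0.4 week, 17 at 1 week, 3 at 2 weeks and 0 at 4 and 6 weeks by limma, with none higher. Of all probe sets, 17.1% were lower at 0.4 week, 20.4% at 1 week and 10.3% at 2 weeks. The median log2 change of the list in the first 3 later times was -2.32, -1.29 and -0.72. Their signals summed to 211319, 408265 and 334946 at 0 time and to 60403 to 67328 at 0.4 week. Muscle transcripts were thus read on the control arrays, most of all on the adult and older ones, where Pfkm and Aldoa were also highest. At 0.4 week none of the 21 was below a signal of 20 on all 3 arrays. Among the brightest, Acta1, skeletal actin, changed by -1.48 ± 0.24, Ckm, muscle creatine kinase, by -2.41 ± 0.35, and Atp2a1, the calcium pump of fast fibers, by -2.32 ± 0.27. The share of muscle in the changes of Pgam2, Eno3, Pfkm, Aldoa and Ldhb was not tested.

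Markers of other cells moved as well. Of all probe sets, 17.1% were lower and 14.1% higher at 0.4 week, 20.4% and 14.6% at 1 week, and 10.3% and 9.49% at 2 weeks. All 7 measured erythroid genes were lower at 0.4 and 1 week, with a summed signal of 72578 to 107047 at 0 time and 10893 to 19598 at 0.4 week, and 4 of 5 granulocyte genes were lower, from 13078 to 24737 down to 658 to 6375. Of 7 cartilage genes, 6 were higher at 1 and 2 weeks, with a summed signal of 396 to 2700 at 0 time and 24045 to 27892 at 2 weeks. The sum of 4 macrophage genes was 2706 to 10788 at 0 time and 9926 to 12424 at 0.4 week, and 1 of them, Cd14, was higher. Of 7 bone genes, 4 were higher and 1 was lower at 0.4 week, and their sum was 29857 in older and 134942 in young rats at 0 time. Slc2a1 was highest at 0.4 and 1 week, while the cartilage sum was highest at 2 weeks at each age, and the part of any of these cells in the rise of Slc2a1 was not tested.

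**Figure D4:**
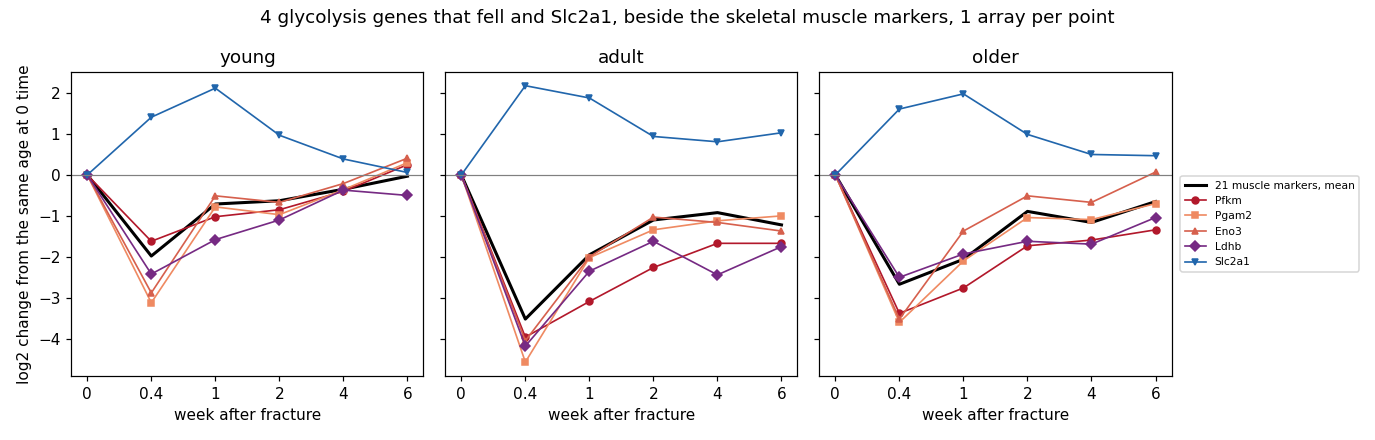
Log2 change from the same age at 0 time for Pfkm, Pgam2, Eno3, Ldhb and Slc2a1 (1 array per point) and for the mean of the 21 measured skeletal muscle markers (black line), by age. The 4 falling genes have their lowest point at 0.4 week with the marker mean at every age, Pfkm and Ldhb lie below Pgam2 and Eno3 at 2, 4 and 6 weeks in adult and older rats, and Slc2a1 lies above 0.

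As a description of likeness, the 3 genes whose log2 signals ran most closely with each of the 9 were named by Pearson's r over the 18 arrays, which share ages and times. Eno3 ran with Tpm1 (0.981), Casq1 (0.976) and Dhrs7c (0.971), and Pgam2 with Tpm1 (0.974), Hspb6 (0.971) and Dhrs7c (0.969). Eno3 and Pgam2 themselves had an r of 0.98. Pfkm ran with Cacna1s (0.977), Slc2a4 (0.974) and Pygm (0.971), and Ldhb with Atp2a2 (0.971), Cox8b (0.948) and Slc2a4 (0.943). Tpm1, Casq1 and Cacna1s belong to the muscle list. Aldoa ran with Ivd (0.950), Idh2 (0.945) and Bckdha (0.928), which encode enzymes of mitochondrial metabolism, and its r was 0.90 with Pfkm, 0.77 with Ldhb, 0.72 with Pgam2 and 0.66 with Eno3. Slc2a1 ran with Eif4ebp1 (0.956), Lgals3 (0.943) and Aldh7a1 (0.935), and with Pfkm it had an r of -0.82. The likeness was lower for Hk2 (Cebpb, 0.896), Pkm (Clpb, 0.880) and Ldha (Pgk1, 0.835).

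Older and young rats were compared next, the question of the study being how healing differs with age. Over all 5 later weeks, 0 of the 9 genes differed by limma, against 0% of all probe sets. With an unadjusted p under 0.05 there were 2, both higher in the older rats, against 1103 of all 8740 probe sets. At 1 and 2 weeks 0 differed, against 0.0229%. At an unadjusted p under 0.05 there were 0 by limma, against 351 of all probe sets, and 1 by the methods' t-test. At 4 and 6 weeks 0 differed, against 0.0915%. At an unadjusted p under 0.05 there was 1 by limma, against 1025 of all probe sets, and 0 by the methods' t-test. The young arrays at 4 and 6 weeks had Gapdh end ratios of 3.485 and 6.565, and the older ones 1.202 and 1.185. Age and this end ratio therefore cannot be told apart in the comparison at 4 and 6 weeks. By the brightest probe sets, the log2 difference over all later weeks, older minus young, was between -0.06 ± 0.19 for Eno3 and 0.60 ± 0.26 for Aldoa. The second probe sets of Pfkm (0.94 ± 0.34) and Slc2a1 (0.78 ± 0.42) lay above this range and did not pass. At 4 and 6 weeks the second Pfkm probe set differed by 1.83 ± 0.32, which did not pass either (adjusted p = 0.159 from limma). Different weeks were the replicates of an age in these fits. The fits had 8 residual degrees of freedom over all later weeks and 4 by phase, so a difference that missed the threshold may still exist.

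Older and young rats were also compared in how far each moved from its 0 time array, with 1 control array per age. None of the 9 genes differed by limma, so 0 against 6.59% of all probe sets. With an unadjusted p under 0.05 by limma there was 1 gene, against 1805 of all 8740 probe sets. That gene was Pfkm, whose change was more negative in the older rats by 1.43 ± 0.38 on the log2 scale (older minus young -1.43, adjusted p = 0.0619 from limma). It passed when dim probe sets, those averaging under 200, were left out of the test. The second Pfkm probe set gave -0.90 ± 0.84 for the same difference, which did not pass (adjusted p = 0.603 from limma). By its brighter probe set Pfkm fell 3.08-fold in young and 10.4-fold in older rats at 0.4 week, from controls of 4084.6 and 13046.5 to nearly the same level. The sum of muscle markers was likewise lower on the young control array.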

How the data were processed

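RNA was read on 18 Rat U34A arrays, 1 for each of 3 ages and 6 times. Arrays of the study's other 2 series were not analysed here. The deposited values are intensity on a linear scale, for which the authors ran Microarray Suite 5.0 and brought each array to a mean of 500. The mean after trimming the highest and lowest 2% was 500.0 on every array. Signals under 20 were set to 20 and taken to log2. After 59 control probe sets were left out, 8740 were tested. Gene names came from the platform table, updated with a RefSeq table, and 7006 probe sets had 1 symbol, 308 several and 1426 none. The brightest probe set stands for a gene.

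Tests used limma 3.58.1 in R 4.3.3 with an intensity trend and Benjamini-Hochberg adjustment over all probe sets at 0.05. The time fit had age and week as terms and 10 residual degrees of freedom. Pairs of forms were compared with an exact permutation test. Both were tested on simulated data, and figures were drawn with matplotlib 3.10.9. In the time fit, p-values measure the spread between pools of 2 rats at different ages. In the comparisons of older and young rats, different weeks were the replicates of an age, so healing time enters that spread. The permutation test exchanged weeks within an age. The number of arrays limits the precision. Named genes are the 9, their partners, glycolysis and glycogen genes that passed the F test, up to 4 bright genes of each marker list and 3 like genes for each of the 9. Others, such as list members that missed the F test, the genes of pyruvate entry, gluconeogenesis and hypoxia, were named after their values were seen. The genes, lists and tests were chosen with earlier results of these data known. RefSeq proteins were not used here.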

Additional observations from a re-analysis of the deposited data

Results flagged for a closer look

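The change from 0 time differed between older and young rats for 3 probe sets of the general forms by a test of the difference itself. They were named because they passed, and none is the brightest of its gene. Of all probe sets, 6.59% passed this test. The number of probe sets looked through is not given here, so 3 cannot be weighed against that share. By their brightest probe sets, none of the 9 genes and 0 of the 18 other measured glycolysis genes passed. The second probe set of Eno1 changed more in older than in young rats by 3.18 on the log2 scale (adjusted p = 0.00848 from limma). Its control signals were 1864.9 in young and 275.5 in older rats, and these ages read 6619.1 and 6728.6 at 0.4 week. The third probe set of Pgam1 differed by 1.24 (adjusted p = 0.0311 from limma), from controls of 565.8 and 260.6. The second probe set of Hk1 differed by -2.80 (adjusted p = 0.0288 from limma), with controls of 57.1 in young and 430.9 in older rats. In each of these the older and young control arrays, 1 per age, lay far apart. The brightest probe set of Hk1 was below the older control on all 5 later older arrays (mean log2 change -0.43) and above the adult control on all 5 later adult arrays, and this contrast of adult and older rats was not tested.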

How the results depend on the processing

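Directions of single genes and pairs held in 669 of 677 recomputed values, among them all 72 of the pairs. The 8 that turned were small changes or those of Hk2. With 1 age left out, Eno3 at 6 weeks ranged from -0.65 to 0.24, Ldha at 0.4 week from -0.35 to 0.08 and at 6 weeks from -0.46 to 0.02, each turning without the adult arrays, and Pkm at 0.4 week ranged from -0.01 to 0.33, turning without the young arrays. With arrays scaled to the median Ldha was at 0.01 at 0.4 week. Hk2 turned with its second probe set at 0.4 week (-0.31) and 1 week (-0.89) and with the mean of its probe sets at 1 week (-0.36).

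With 1 age left out in turn, the number of the 9 genes changed over the later weeks ranged from 1 to 8, lower at 1 week from 0 to 7, lower at 2 weeks from 0 to 6, higher at 2 weeks from 0 to 1, lower at 4 weeks from 0 to 6 and lower at 6 weeks from 0 to 3, while lower at 0.4 week it ranged from 4 to 5. The low ends came without the adult or the older arrays and the high ends without the young ones. Pairs that passed went from 5 to 0, where the smallest p that 2 ages allow is 0.0278. The methods' t-test after adjustment found 2 genes lower at 0.4 week on log2 signals and 0 on linear signals, 0 lower at 1, 2 and 4 weeks and 0 higher at 2 weeks on either scale, and 0 higher at 0.4 and 1 week on linear signals. Without the young 4- and 6-week arrays 2 genes were higher at 0.4 week, Slc2a1 and Hk2. Lower at 2 weeks were 3 genes with no age term and 3 with second probe sets. Higher at 2 weeks were 0 genes with the mean of all probe sets and 0 with second probe sets. Lower at 4 weeks were 6 genes once probe sets averaging under 200 were dropped, 1 with no age term and 0 with arrays scaled to the median. With that signal minimum 1 gene was lower at 6 weeks (Aldoa) and 1 differed in response between older and young rats (Pfkm). The causes were not tested.

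In the time fit weeks were compared within age, with age as a term, and without that term 6 of the 9 genes changed over the later weeks. The methods' t-tests of weeks had no age term. Detection calls were not analysed here, and signals near the floor carry little information. The 9 genes' brightest probe sets were all above it.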
